A study of Homo sapiens with 6 samples.

Results

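The human mitochondrial genome, a small circle of DNA outside the nucleus, carries 37 genes, and all 37 were found among the 61806 genes of the deposited table by taking the rows placed on chromosome MT. They comprise 2 ribosomal RNA (rRNA) genes, 13 protein-coding genes (mRNA class) and 22 transfer RNA (tRNA) genes. HFF cells, an established bank culture of human foreskin fibroblasts labelled wild type, had received 40 mJ per cm2 of ultraviolet B (UVB) in every library. The 3 UVB libraries came from cells kept in vehicle, and the 3 UVB + sauchinone libraries from cells kept in 10 µM sauchinone, a plant lignan, with 48 h of culture after irradiation. The protocols also describe addition of the compound before irradiation, and the labels do not say which scheme these libraries followed. All values come from this 1 culture, unirradiated cells were not analysed here, and the labels do not state that replicates were separate cultures, so p-values measure only the spread between these libraries, which may be technical.

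Mitochondrial DNA is transcribed from both strands into long precursors that run through many genes. The heavy-strand transcript starts near the tRNA gene MT-TF, passes both rRNA genes and then 12 of the mRNA genes. The light-strand transcript carries MT-ND6 and the remaining tRNA genes. The tRNAs sit between the longer genes, and their excision by RNase P and the 3′-end nuclease ELAC2 releases the rRNAs and mRNAs. The mRNAs encode subunits of respiratory complexes I, III and IV and of ATP synthase, the enzymes of oxidative phosphorylation, and most of them receive a short poly(A) tail after they are cut out. In fibroblasts, as in other cells, every other subunit of these complexes and all of the transcription machinery come from nuclear genes.

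In the table's coordinates 28 genes lay on the plus strand, which has the sequence of the heavy-strand transcript, and 9 on the minus strand. All 37 had the same start, end and strand in GENCODE release 29 on GRCh38, from which the sequences below were taken. The genes abut or overlap, and reads in shared bases cannot be assigned to 1 gene. Counts of mRNAs below are counts of protein-coding genes, so overlapping genes are counted apart even where 1 RNA holds both. MT-ATP8 and MT-ATP6, which encode subunits of ATP synthase, share 46 bases, and MT-ND4L and MT-ND4, which encode subunits of complex I, share 7. The sequences of MT-ATP8 (MT:8366-8572, plus strand) and of the last 40 bases of MT-ND4L (MT:10727-10766, plus strand) are shown with the shared bases in capitals.
MT-ATP8: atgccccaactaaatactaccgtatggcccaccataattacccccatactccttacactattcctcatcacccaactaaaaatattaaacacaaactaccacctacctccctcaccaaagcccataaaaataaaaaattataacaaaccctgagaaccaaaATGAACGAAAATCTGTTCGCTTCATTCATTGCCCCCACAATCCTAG
MT-ND4L end: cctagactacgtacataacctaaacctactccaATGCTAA

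The mRNAs also differ in where their genes end. In 6 of 13 mRNA genes, as annotated, the DNA ends inside the stop codon, with T alone in 5 and TA in 1. The poly(A) tail supplies the missing bases. MT-ATP6 is not among these 6 and ends in TAA, but the last base of its stop codon is also the first base of MT-CO3. The last 30 bases of MT-ND1 (MT:4233-4262), of MT-ND4 (MT:12108-12137) and of MT-CO1 (MT:7416-7445), all on the plus strand, are given as examples, with the last codon, or the part of it that the gene holds, in capitals. These 3 genes were chosen because they respectively rose, fell and did not pass the test with sauchinone.
MT-ND1 end: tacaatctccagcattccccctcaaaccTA
MT-ND4 end: accccgacatcattaccgggttttcctctT
MT-CO1 end: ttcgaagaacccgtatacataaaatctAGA

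Library totals ran from 20984851 to 23076388 counts, and 15704 genes passed the filter on low counts. Levels are given as CPM, the count scaled to a common library size after adjustment by the trimmed mean of M values (TMM), or, between genes, as the deposited FPKM, which also divides by gene length. At this depth 3 counts equalled 0.129 to 0.144 CPM, a floor that covers counting error only. The fibroblast label was checked against its markers: all 8, among them COL1A1, COL1A2, DCN and VIM, were detected, at a summed 18522 to 20206 CPM in UVB and 13371 to 13655 CPM in UVB + sauchinone. In both groups the summed level was at most 13.9 CPM for 6 keratinocyte markers, 2.41 CPM for 5 melanocyte markers, 7.99 CPM for 5 endothelial markers and 5.23 CPM for 6 leukocyte markers. KRT5, KRT1, DSG3, DCT, CDH5, KDR and CD3E were at 0 in every library. The 6 pericyte and smooth muscle markers summed to 105 to 114 CPM in UVB and 60.7 to 68.8 CPM in UVB + sauchinone. In the edgeR test described below 7 of the 8 fibroblast markers fell with sauchinone (87.5%, against 24.9% of all genes tested) and 0 rose. The part of these fibroblast, pericyte and smooth muscle marker differences in the values below was not tested.

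With sauchinone both mitochondrial rRNAs and the 2 mRNAs nearest to them rose, and most mRNAs farther along the heavy-strand transcript fell. MT-RNR1, the 12S rRNA of the small mitochondrial ribosomal subunit, was 2.30-fold higher, while MT-ND4L and MT-ND4 were 1.52-fold and 1.43-fold lower. Of the 16 genes that had enough counts, 4 rose, 9 fell and 3 did not pass an adjusted p of 0.05 in edgeR's quasi-likelihood test. Across all 15704 genes tested 49.6% passed, 24.7% of all as rises and 24.9% as falls. The other 21 members, all tRNA genes, were not tested. In bulk RNA, fewer copies per cell and fewer cells that carry them cannot be told apart.

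**Figure D1:**
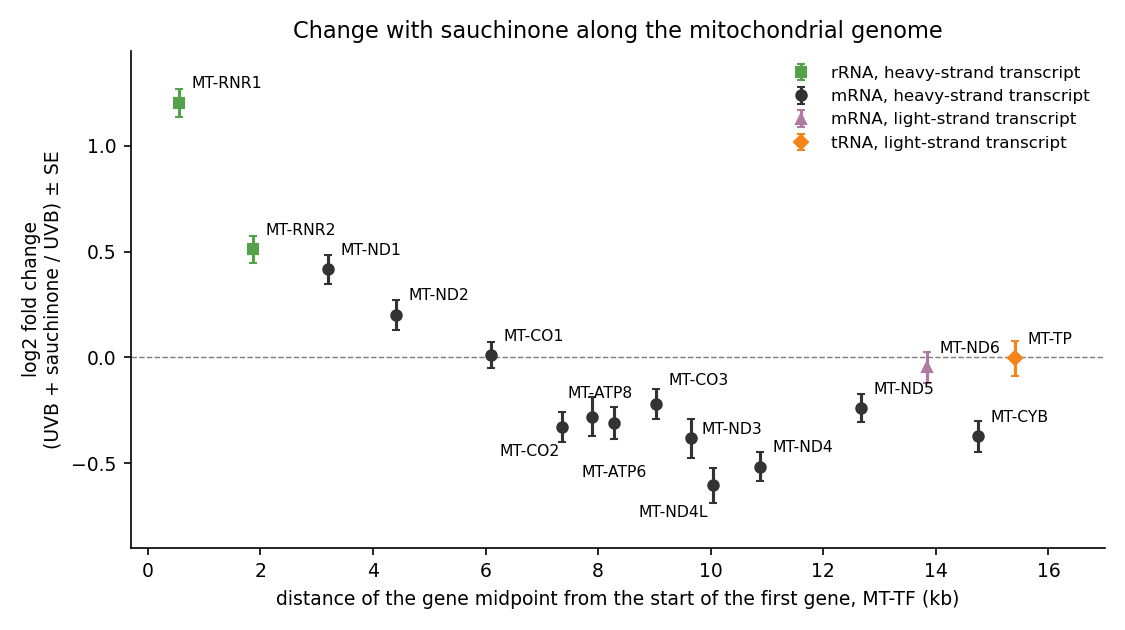
Change with sauchinone along the mitochondrial genome. Each point is 1 of the 16 tested genes, the x axis is the distance of its midpoint from the start of the first gene (kb) and the y axis its log2 fold change (UVB + sauchinone over UVB) with its standard error (SE); the value falls from 1.20 at MT-RNR1 to −0.60 at MT-ND4L, and the genes of the light-strand transcript, MT-ND6 and MT-TP, lie near 0.

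The rRNA genes lie near the heavy-strand start, ahead of all mRNA genes. MT-RNR1 (ENSG00000211459, MT:648-1601, plus strand) stood at 1798, 1728 and 1768 CPM in the UVB libraries (replicates 1, 2 and 3, in that order here and below) and at 3858, 4485 and 3848 CPM in the UVB + sauchinone libraries. Every library with sauchinone lay above every UVB library. The mean rose from 1765 ± 35.2 to 4064 ± 365 CPM (SD, n = 3). On the log2 scale the rise was 1.20, with an SE of 0.068 (edgeR adjusted p = 2.8e-12), and log2 values below carry their SE after ±, while CPM and FPKM carry their SD.

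MT-RNR2 (ENSG00000210082, MT:1671-3229, plus strand), the 16S rRNA of the large subunit, was the most abundant member by length-scaled level. It stood at 12584, 12487 and 13293 CPM in the UVB libraries and at 16624, 19484 and 18573 CPM in the UVB + sauchinone libraries, again without overlap. Its log2 fold change was 0.51 ± 0.063 (edgeR adjusted p = 5.4e-07), a 1.43-fold rise. A trend with the length of the gene locus (the span trend) was also removed from each library. It was a lowess curve, against log2 length, of each gene's log2 CPM minus its mean over the 6 libraries. Its removal made the log2 fold change of MT-RNR2 0.32 and that of MT-RNR1 1.03, both still called. In deposited FPKM the MT-RNR1 level was 22.6% of MT-RNR2 in UVB and 36.4% in UVB + sauchinone.

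The protocols name both poly(A) selection and removal of ribosomal RNA, so RNAs without a poly(A) tail are given beside the rRNAs. Of these, chiefly replication-dependent histones, 14 of 17 tested members rose and none fell, against 24.7% and 24.9% of all genes tested, with a median log2 fold change of 1.03 against 0.0071. With the filter set at 1 CPM in 3 libraries, under which fewer of these RNAs are tested, 9 rose. Among them RN7SL1, the RNA of the signal recognition particle, rose from 2.48 ± 0.46 to 4.58 ± 0.93 CPM (edgeR adjusted p = 0.0017; named after its values were seen), and RN7SK and RPPH1 were at 0 counts in every library. The part of this difference in the rRNA values was not tested. MT-ND6, an mRNA with little or no poly(A) tail, and the tRNA MT-TP did not pass (log2 fold changes −0.046 and −0.0045, described below).

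Among the mRNAs 2 rose, 9 fell and 2 did not pass. The median log2 fold change of the 13 was −0.28. In CPM every sauchinone library lay above every UVB library in 2 of them and below in 7. Of those 7, MT-ATP8 had overlapping groups in the deposited FPKM. Over all genes tested the groups did not overlap in 57.1%, upward in 28.6% and downward in 28.5%.

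**Figure D2:**
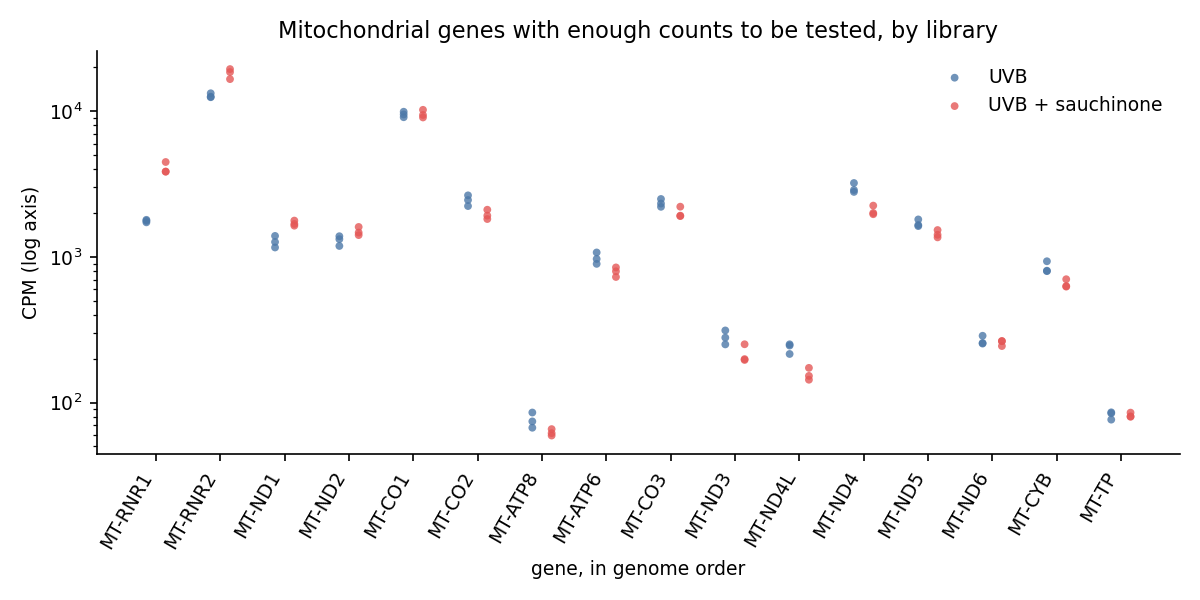
Levels of the 16 tested mitochondrial genes by library. The y axis is CPM on a log axis, the x axis the genes in genome order, and each point is 1 library; UVB + sauchinone libraries lie above UVB libraries in MT-RNR1, MT-RNR2, MT-ND1 and MT-ND2 and below them in MT-CO2, MT-ATP8, MT-ATP6, MT-ND4L, MT-ND4, MT-ND5 and MT-CYB.

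Complex I, the entry point of NADH electrons, takes 7 subunits from this genome, and they did not move as 1 group. MT-ND1 (ENSG00000198888, MT:3307-4262, plus strand), the mRNA that follows the rRNAs, stood at 1267, 1395 and 1162 CPM in UVB and at 1639, 1685 and 1777 CPM in UVB + sauchinone. The groups were apart, and it rose by 0.42 ± 0.070 on the log2 scale (edgeR adjusted p = 3.6e-05). MT-ND2 (ENSG00000198763, MT:4470-5511, plus strand) comes next, at 1324, 1388 and 1189.8 CPM against 1470.0, 1413 and 1607 CPM. Its groups were apart by a narrow margin, and it rose by 0.20 ± 0.071 on the log2 scale (edgeR adjusted p = 0.021). MT-ND2 no longer passed when UVB replicate 1 (edgeR adjusted p = 0.058, log2 fold change 0.21), UVB replicate 3 (0.061, log2 fold change 0.14) or UVB + sauchinone replicate 3 (0.14, log2 fold change 0.15) was left out. It also did not pass with the span trend removed (edgeR adjusted p = 0.78, log2 fold change 0.028) or with the same curve for exonic size, the size trend, removed (0.25, log2 fold change 0.10).

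The complex I mRNAs beyond the middle of the transcript went down. MT-ND4 (ENSG00000198886, MT:10760-12137, plus strand) stood at 2882, 3218 and 2796 CPM in UVB and at 2003, 1965 and 2251 CPM in UVB + sauchinone. Its groups did not overlap, and it fell by 0.52 ± 0.070 on the log2 scale (edgeR adjusted p = 2.1e-06). MT-ND4L (ENSG00000212907, MT:10470-10766, plus strand), which overlaps MT-ND4 as shown above, stood at 216, 251 and 247 CPM against 144, 153 and 173 CPM and fell by 0.60 ± 0.082 (edgeR adjusted p = 2.4e-06). The shared bases leave these neighbours partly uncertain as separate values. MT-ND3 fell from 281 ± 31.0 to 216 ± 31.2 CPM and MT-ND5 from 1698 ± 97.3 to 1438 ± 85.1 CPM (SD, n = 3 in each group), by 0.38 ± 0.093 and 0.24 ± 0.067 on the log2 scale (edgeR adjusted p = 0.0015 and 0.0047). The MT-ND3 groups overlapped, since UVB + sauchinone replicate 3 reached 251.6 CPM and UVB replicate 1 was at 251.1 CPM.

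MT-ND6 (ENSG00000198695, MT:14149-14673, minus strand) is the only mRNA of the light-strand transcript and is known to carry little or no poly(A) tail. It stood at 254, 288 and 257 CPM in UVB and at 264, 245 and 265 CPM in UVB + sauchinone. The groups overlapped, and the log2 fold change was −0.046 ± 0.073 (edgeR adjusted p = 0.63). Among the alternatives it passed with the span trend removed (−0.18, edgeR adjusted p = 0.043). Its base composition is set apart from the heavy-strand mRNAs, with 35.6% G and 7.05% C. Those 12 hold 6.28% to 16.2% G and 29.5% to 36.0% C. Whether strand was used in counting is not stated, so the MT-ND6 counts may include RNA of the heavy-strand transcript.

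MT-CYB (ENSG00000198727, MT:14747-15887, plus strand), the cytochrome b of complex III and the last mRNA of the heavy-strand transcript, stood at 799, 934 and 805 CPM in UVB and at 626, 631 and 703 CPM in UVB + sauchinone. All sauchinone libraries were below all UVB libraries, and it fell by 0.37 ± 0.074 on the log2 scale (edgeR adjusted p = 0.00022). MT-ND6, which did not pass, lies on the other strand between MT-ND5 and MT-CYB, which both fell.

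The 3 subunits of cytochrome c oxidase (complex IV), which passes electrons to oxygen, differed among themselves. MT-CO1 (ENSG00000198804, MT:5904-7445, plus strand), its catalytic subunit and the most abundant mRNA, stood at 9511, 9927 and 9103 CPM in UVB and at 9069, 9431 and 10233 CPM in UVB + sauchinone. These ranges overlapped throughout, and the log2 fold change was 0.0097 ± 0.062 (edgeR adjusted p = 0.91). With the span trend removed it was −0.18 (edgeR adjusted p = 0.019). MT-CO2, which accepts the electrons of cytochrome c, fell from 2447 ± 206 to 1951 ± 146 CPM, by 0.33 ± 0.072 on the log2 scale (edgeR adjusted p = 0.00060). MT-CO3 fell from 2345 ± 146 to 2014 ± 173 CPM, by 0.22 ± 0.070 (edgeR adjusted p = 0.012), with overlapping groups. MT-CO3 no longer passed when UVB + sauchinone replicate 1 (edgeR adjusted p = 0.086) or replicate 2 (0.058) was left out, with a log2 fold change of −0.18 in both.

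Both ATP synthase genes, which overlap and need not be separate RNAs, fell. MT-ATP6, the subunit of the proton channel, went from 979.7 ± 89.0 to 791 ± 59.7 CPM, by 0.31 ± 0.075 on the log2 scale (edgeR adjusted p = 0.0016). MT-ATP8 went from 75.7 ± 9.23 to 62.3 ± 3.22 CPM, by 0.28 ± 0.092 (edgeR adjusted p = 0.014). It no longer passed when UVB replicate 2 (edgeR adjusted p = 0.084, log2 fold change −0.19) or UVB + sauchinone replicate 1 (0.085, log2 fold change −0.24) was left out. The 46 shared bases shown above make up part of the short MT-ATP8, so its value depends on how such reads were counted, which is not given in the sources used here.

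The change along the heavy-strand transcript was described after the fold changes had been seen and carries no test. In order of position the log2 fold changes were 1.20 and 0.51 for the rRNAs, 0.42 for MT-ND1, 0.20 for MT-ND2 and 0.0097 for MT-CO1, and negative for each of the 9 mRNAs that follow. The decline was not even, since MT-CO3 (−0.22) and MT-ND5 (−0.24) lay above the mRNAs beside them. Over the 12 heavy-strand mRNAs Pearson's r of the log2 fold change with distance was −0.76 and Spearman's rho −0.70, given as a description. These 12 genes share precursors and libraries, and those that overlap are not separate points. The fold change dropped by 0.068 per kb on the log2 scale, and leaving out 1 gene at a time moved this to between −0.049 (without MT-ND1) and −0.090 (without MT-CYB).

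The same pattern can be read within each library, where it does not depend on how libraries are scaled to each other. It rests on the same counts as the fold changes, so it is not separate evidence. The slope of log2 FPKM against distance over these 12 mRNAs was −0.117, −0.107 and −0.101 per kb in the UVB libraries. With sauchinone it was −0.177, −0.179 and −0.172 per kb, each steeper than any UVB slope. Across the alternative fits the slope of the log2 fold change was −0.065 to −0.072 per kb. A change of scaling or filter shifts all genes by about the same amount, so it could hardly move this slope. The slope was −0.069 with the span trend removed and −0.069 with the size trend removed. With GC content and with log2 gene length the log2 fold changes of the 12 mRNAs had Pearson's r of 0.36 and 0.35.

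Per unit length, levels differed widely among the mRNAs. In UVB the deposited FPKM ran from 6065 ± 251 for MT-CO1 to 359 ± 41.6 for MT-ATP8 (SD, n = 3), a ratio of 16.9, and in UVB + sauchinone from 6299.5 ± 399 for MT-CO1 to 305 for MT-ATP8, a ratio of 20.6. The order of the mRNAs in UVB was MT-CO1, MT-CO2, MT-CO3, MT-ND4, MT-ATP6, MT-ND1, MT-ND2, MT-ND5, MT-ND3, MT-ND4L, MT-CYB, MT-ND6 and MT-ATP8. The libraries of neighbours overlapped from MT-ATP6 through MT-ND2 and from MT-ND5 through MT-CYB, so those stretches of the order were not resolved. In UVB + sauchinone MT-ND1 (1804 ± 76.4 FPKM) stood above MT-ND4 (1526 ± 122 FPKM), whereas in UVB they were at 1310.3 ± 117 and 2115 ± 151 FPKM. MT-RNR1 passed MT-CO2, MT-CO3 and MT-ND4 in the order, from 1819 ± 47.5 to 4318 ± 345 FPKM. Deposited FPKM are not TMM-scaled. Where genes overlap, as MT-ATP8 with MT-ATP6 (1414 ± 124 FPKM in UVB), 1 RNA can hold both. Their FPKM also depend on how reads in shared bases were counted, so they need not be separate RNA levels. The slopes above use the same FPKM.

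The tRNA genes were almost uncounted. Of 22, 19 had 0 counts in every library, among them all 14 of the plus strand, although they lie between the most abundant transcripts. MT-TC had 2, 4 and 2 counts in UVB and 0, 1 and 6 in UVB + sauchinone, and MT-TY had 1 count in UVB replicate 2 and none elsewhere. These values lie at or near the floor, so no change is detectable. The floor of up to 0.144 CPM covers counting error only. A count of 0 sets no limit on the RNA level if reads were not assigned to the tRNA genes. Their lengths of 59 to 75 bases are shorter than the sequenced reads, and how reads that reach into a neighbouring gene were treated is not stated.

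The exception was MT-TP, the proline tRNA (ENSG00000210196, MT:15956-16023, minus strand), after which the table lists no further gene. Its sequence is given with the anticodon, bases 32 to 34 from the 5′ end, in capitals.
MT-TP: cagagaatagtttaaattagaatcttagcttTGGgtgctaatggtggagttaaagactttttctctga

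MT-TP had 1755, 1852 and 1732 counts in UVB and 1781, 1851 and 1993 in UVB + sauchinone, or 84.5, 85.8 and 76.4 CPM against 80.5, 80.0 and 85.4 CPM. The groups overlapped, and the log2 fold change was −0.0045 ± 0.081 (edgeR adjusted p = 0.97). It is the first gene of the light-strand transcript, and MT-ND6, farther along the same transcript, did not pass either. Whether the reads come from the mature tRNA or from longer RNA that holds it was not tested. As for MT-ND6, use of strand in counting is not stated, so the MT-TP counts may include RNA of the heavy-strand transcript.

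As shares of the whole library, the genome as a unit took 3.81%, 3.92% and 3.73% of counts in the UVB libraries and 4.30%, 4.58% and 4.74% with sauchinone. Every sauchinone library was higher, the means being 3.82% ± 0.096 and 4.54% ± 0.22 (SD, n = 3; two-sided exact permutation p = 0.10, the smallest that 3 against 3 allows, and 0.16 adjusted over the 8 shares and ratios tested). The genome's share thus differed by 0.72 percentage points and that of the rRNAs alone by 0.83, from 1.43% ± 0.045 to 2.26% ± 0.16, without overlap (exact permutation p = 0.10). The mRNAs together took 2.38% ± 0.14 and 2.27% ± 0.15, with overlapping libraries (exact permutation p = 0.40). The tRNAs took 0.0081% ± 0.00051 and 0.0083% ± 0.00036 (exact permutation p = 0.70).

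**Figure D3:**
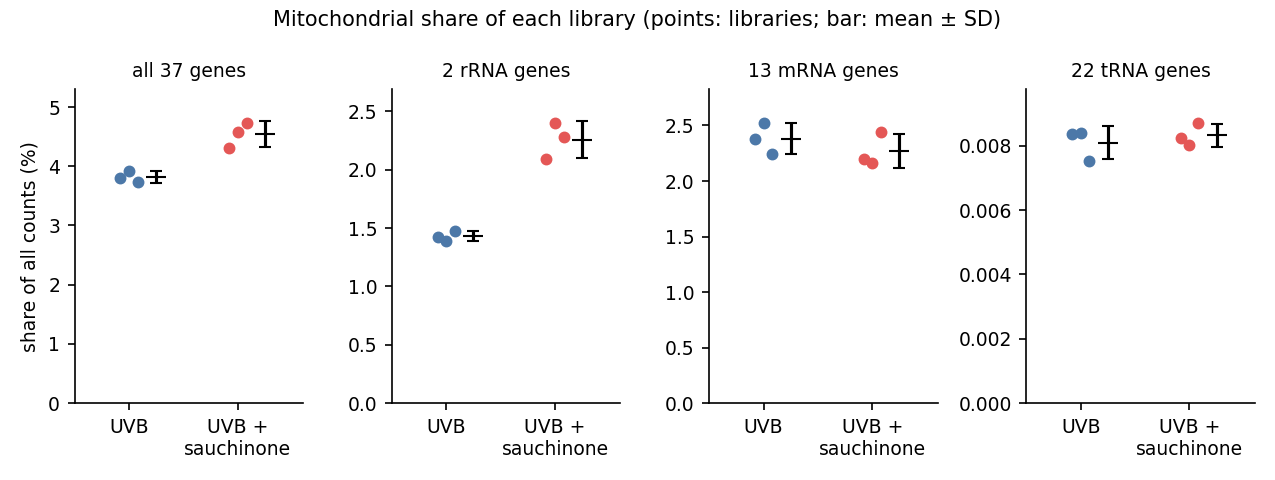
Share of each library's counts from mitochondrial genes, for all genes and by class. Points are libraries, the bar is the mean with its SD (n = 3), and the y axis is the share in percent from 0; the rRNA share is 1.39% to 1.48% in UVB and 2.09% to 2.40% in UVB + sauchinone, while the mRNA and tRNA shares overlap.

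Ratios within the mitochondrial genome are free of library scaling. The log2 ratio of rRNA to mRNA counts was −0.74, −0.86 and −0.60 in UVB and −0.072, 0.15 and −0.10 in UVB + sauchinone, a 1.66-fold difference with no overlap (exact permutation p = 0.10). The tRNA to mRNA ratio rested almost wholly on MT-TP and was −8.20 ± 0.046 and −8.09 ± 0.037 on the log2 scale, also without overlap (exact permutation p = 0.10). For MT-ND6 against the summed heavy-strand mRNAs the log2 ratio was −6.49 ± 0.045 and −6.42 ± 0.082, with overlap (exact permutation p = 0.40). MT-CO1 dominates that sum, and the MT-ND6 counts may include RNA of the other strand, as stated above. With each heavy-strand mRNA weighted equally the difference was 0.17 (exact permutation p = 0.10), and without the overlapping gene pairs it was 0.0047 (exact permutation p = 1.0).

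Nuclear genes that express mitochondrial DNA were higher more often than lower. Of 67 tested members of a list of 68, 26 rose, 9 fell and 32 did not pass, which is 38.8% higher and 13.4% lower against the 24.7% and 24.9% of all genes tested, with a median log2 fold change of 0.21. The members that rose had a median genomic span of 25.2 kb and those that fell 58.4 kb. With the span trend removed 24 rose and 12 fell.

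Of 11 transcription factors and cofactors 3 rose, 1 fell and 7 did not pass. The rises were 27.3%, near the 24.7% of all genes tested, and the falls 9.09%, against 24.9%. POLRMT, the mitochondrial RNA polymerase, rose from 11.3 ± 1.30 to 24.4 ± 1.80 CPM, by 1.11 ± 0.12 on the log2 scale (edgeR adjusted p = 6.1e-08). TFAM, which packages the genome and activates its promoters, rose from 45.7 ± 7.77 to 66.4 ± 7.99 CPM, by 0.54 ± 0.11 (edgeR adjusted p = 0.00031). TFB2M, which opens the promoter for the polymerase, was at 26.5 ± 0.67 and 29.2 ± 2.70 CPM (edgeR adjusted p = 0.26).

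Among 15 replication and nucleoid genes 7 rose (46.7%), 2 fell (13.3%) and 6 did not pass, against 24.7% and 24.9% of all genes tested. TWNK, the replicative helicase, rose from 12.4 ± 1.32 to 31.2 ± 5.54 CPM, by 1.34 ± 0.13 on the log2 scale (edgeR adjusted p = 1.5e-08). POLG, the catalytic subunit of the DNA polymerase, rose from 38.3 ± 4.34 to 70.7 ± 3.39 CPM, by 0.88 ± 0.093 (edgeR adjusted p = 6.4e-08).

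RNA processing genes rose in 12 of 30 tested members (40.0%) and fell in 4 (13.3%), against 24.7% and 24.9% of all genes tested. FASTKD5, which is needed to free mRNAs that no tRNA borders, rose from 24.2 ± 1.10 to 59.3 ± 6.45 CPM, by 1.29 ± 0.098 on the log2 scale (edgeR adjusted p = 3.0e-10). METTL15, a methyltransferase of the 12S rRNA, fell from 28.6 ± 2.45 to 12.2 ± 0.99 CPM, by 1.24 ± 0.11 (edgeR adjusted p = 5.6e-09), but its locus spans 419 kb and it did not pass with the span trend removed (−0.23, edgeR adjusted p = 0.075). PRORP, the nuclease of mitochondrial RNase P, fell from 7.67 ± 0.47 to 3.40 ± 0.79 CPM, by 1.17 ± 0.18 (edgeR adjusted p = 1.4e-05), and by 0.74 with the span trend removed (a locus of 156 kb).

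Of 11 genes of RNA stability and decay 4 rose (36.4%) and 2 fell (18.2%), against 24.7% and 24.9% of all genes tested. The 2 falls were PNPT1, the exonuclease of the degradosome, from 41.0 ± 2.07 to 30.0 ± 1.97 CPM (edgeR adjusted p = 0.00031), and LRPPRC, which stabilises the mitochondrial mRNAs. LRPPRC went from 203 ± 19.7 to 158 ± 4.74 CPM, by 0.36 ± 0.078 on the log2 scale (edgeR adjusted p = 0.00052). Its locus spans 110.0 kb, and it did not pass with the span trend removed (−0.11, edgeR adjusted p = 0.21).

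The nuclear partners of the mitochondrially encoded subunits moved in both directions. Their list also holds SDHA, SDHB, SDHC and SDHD of complex II, to which the mitochondrial genome gives no subunit. Of 79 tested nuclear respiratory chain subunits 16 rose (20.3%), 9 fell (11.4%) and 54 did not pass, against 24.7% higher and 24.9% lower over all genes tested, with a median log2 fold change of 0.099. ATP5F1B, the catalytic beta subunit of ATP synthase, rose from 600.5 ± 54.6 to 865 ± 7.05 CPM (edgeR adjusted p = 1.9e-06) and NDUFB9 of complex I from 54.4 ± 5.48 to 73.1 ± 1.08 CPM (edgeR adjusted p = 0.00032). NDUFS4 of complex I fell from 42.2 ± 2.11 to 21.3 ± 1.40 CPM, by 0.99 ± 0.096 on the log2 scale (edgeR adjusted p = 1.7e-08), and by 0.69 with the span trend removed (a locus of 123 kb). NDUFB5 fell from 67.5 ± 0.76 to 50.5 ± 2.38 CPM (edgeR adjusted p = 0.00021). These counts moved with the setting: 7 rose and 19 fell with the span trend removed, 10 and 15 with the size trend removed, and 25 rose on total counts alone. Without UVB replicate 2, 27 rose, and without UVB replicate 1 or UVB + sauchinone replicate 3, 10 did.

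The proteins that join both rRNAs in the mitochondrial ribosome are nuclear as well. Of 78 mitochondrial ribosomal protein genes 21 rose (26.9%, near the 24.7% of all genes tested), 11 fell (14.1%, against 24.9%) and 46 did not pass, with a median log2 fold change of 0.049.

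The mitochondrial mRNAs were compared with the nuclear respiratory chain subunits, those of complex II included. The difference was tested as a ratio of summed counts within each library. Its log2 value was 2.0993, 2.1007 and 2.0977 in UVB and 1.84, 1.85 and 2.00 in UVB + sauchinone, so that all sauchinone libraries were lower. The ratio was 1.15-fold lower in means (exact permutation p = 0.10, and 0.16 adjusted over the 8 tests).

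**Figure D4:**
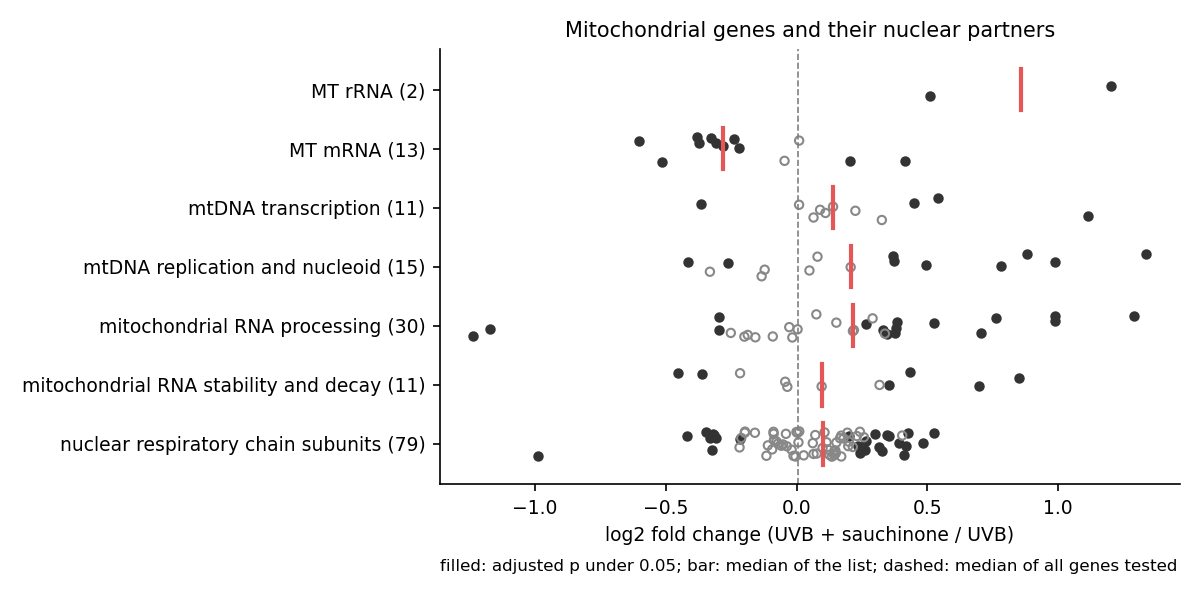
Log2 fold changes (x axis, UVB + sauchinone over UVB) of mitochondrial genes and of their nuclear partners by list, with the number tested in brackets. Filled points had an adjusted p under 0.05, the bar is the median of the list and the dashed line the median of all genes tested; the median is −0.28 for the mitochondrial mRNAs, 0.14 for transcription, 0.21 for replication and 0.099 for nuclear respiratory chain subunits.

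Copies of mitochondrial genes that lie in nuclear chromosomes can take some of the reads. The table names 402 such rows, of which 3 exceeded a mean of 100 counts, all 3 on chromosome 1, and the next had a mean of 10.0. MTATP6P1 (chromosome 1 at 633696 to 634376, plus strand) had a mean of 1501 counts, 7.64% of the MT-ATP6 mean, and fell by 0.35 ± 0.11 on the log2 scale (edgeR adjusted p = 0.0082), beside −0.31 for MT-ATP6. MTND2P28 had 1169.5 counts in the mean, and its log2 fold change was 0.15 ± 0.088 (edgeR adjusted p = 0.16), beside 0.20 for MT-ND2. MTCO1P12 had 308 counts and −0.10 ± 0.12 (edgeR adjusted p = 0.49), beside 0.0097 for MT-CO1. How reads that match both a copy and its parent were divided is not given in the sources used here, so these values are uncertain on both sides.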

How the data were processed

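RNA from 6 libraries of irradiated HFF cells, 3 per group, was analysed from 1 table. The authors deposited raw counts per gene, which are whole numbers, and FPKM values. The deposited FPKM equalled the count divided by exonic size and total count within 0.006 in 100% of values, so only counts were tested. The submitters' processing notes name the build GRCh38. The sources used here name no aligner or counting program, nor whether strand was used in counting. Libraries were strand-specific, per the labels' protocols, which name both poly(A) selection and rRNA removal.

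The test of counts used edgeR 4.0.16 under R 4.3.3 (filterByExpr, TMM, quasi-likelihood test, two-sided, no covariates, Benjamini-Hochberg adjustment over 15704 genes, threshold 0.05). The SE is the absolute log2 fold change over the square root of F, with a median of 0.12. Shares and ratios used exact permutation tests over libraries. Replicates of a group differed by more than counting noise (4.56 to 24.4 times the counting variance). On simulated counts for 15704 genes the recovery was 39 of 67 (58.2%) at 1.5-fold, 50 of 67 (74.6%) at 2-fold and 63 of 66 (95.5%) at 4-fold, with 12 false calls among 164. Far fewer genes were changed in the simulation than were called in the data. The adjustment therefore works differently there, and these shares do not measure the power of the test here.

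Members and lists were chosen with earlier results of these data known. All 37 members are accounted for. Full statistics are given for both rRNAs, MT-ND6, MT-TP and the mRNAs with the smallest p on each side (up to 3). Nuclear genes named are the 4 called members with the smallest p in each direction for expression of mitochondrial DNA, with POLRMT, TFAM, TFB2M, TWNK, POLG and LRPPRC whatever their p, the 2 in each direction for the respiratory chain, and the 3 copies with the highest counts. Alternatives were DESeq2 1.42.0, limma-voom (limma 3.58.1), other scalings and filters, a replicate block, removal of trends with span or exonic size, and each library left out.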

Additional observations from a re-analysis of the deposited data

How the results depend on the processing

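The 2 rises of the rRNAs and the directions of the 11 mRNAs called held under all alternatives, as did calls other than those of MT-ND2, MT-ATP8 and MT-CO3 described above. The number of mRNAs called higher was 1 with the span trend or the size trend removed, and 1 to 2 with a library left out; 7 to 11 were called lower. Genes without a call changed sign. MT-CO1 was −0.0015 with upper-quartile normalization, −0.18 and −0.12 with the span or size trend removed, and −0.038 to 0.051 with a library left out. MT-ND6 was −0.081 to 0.0095 with a library left out. MT-TP was 0.041 on total counts and 0.046 with the size trend removed, and −0.058 to 0.023 with a library left out. The tRNA share differed by −6.7e-05 to 0.00038 percentage points with a library left out. Nuclear respiratory chain subunits called higher were 25 on total counts, 7 and 10 with the span or size trend removed and 10 to 27 with a library left out; 19 and 15 were called lower with those trends removed. Of RNAs without a poly(A) tail 9 were called higher with at least 1 CPM in 3 libraries, where fewer genes are tested. Other causes were not tested.

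Replicate numbers did not pair the libraries: same-numbered libraries had correlations of deviations of 0.0072, −0.078 and −0.031, and UVB + sauchinone replicate 1 correlated best with UVB replicate 2 (0.064). With the replicate block 3603 genes rose and 3677 fell, against 3872 and 3914, and the mRNA calls were 2 higher and 9 lower. The light-strand to heavy-strand tRNA ratio could not be formed, since heavy-strand tRNAs had 0 counts.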
